A study of Canis lupus familiaris with 2 samples.

Results

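Isolated CpG sites, those with no other listed CpG within 200 bp on either side, were described by whole-genome bisulfite sequencing of MDCK, a dog kidney line of epithelial origin. Of 18169274 CpG sites on the 38 autosomes with at least 10 calls in both libraries, 564733 (3.11%) were isolated. They were chosen by position and depth alone, and no methylation value entered the choice. Any number of calls was present at 994122 isolated sites, so 56.8% of them passed the depth minimum, against 77.4% of all listed autosomal sites. Clustered sites, with 4 or more other listed sites within 200 bp, were the comparison, and sites with 1 to 3 others are called in-between sites here. The whole series lists 25888236 CpG sites.

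The treated culture was MDCK given TGF-beta at 5 ng/ml for 30 days and is labelled mesenchymal; the control was MDCK left untreated in parallel for the same time and is labelled epithelial. TGF-beta is a growth factor that can drive epithelial cells towards a mesenchymal state. Each group has 1 library, so no value below has a replicate error, and every comparison between TGF-beta and control is a comparison of 2 libraries. The TGF-beta library held 1019766599 calls and the control 656122583. The level of a site is its methylated calls as a percentage of all its calls, and the level of a group of sites is the mean of its site levels unless summed calls are named. Positions are in canFam3. The bases that flank the sites and the genes around them are not analysed here.

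Methylation of a CpG is copied after DNA replication, when DNMT1, guided by UHRF1, methylates the new strand opposite a methylated parental one. In cultured human and mouse cells, long late-replicating stretches of the genome, known as partially methylated domains, lose methylation over many divisions. CpGs with few neighbours are known there to lose more than CpGs in dense groups. Short CpG-dense stretches, the CpG islands, are mostly kept unmethylated where the surrounding DNA is methylated.

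Isolated sites were less methylated than clustered sites in both libraries. Their mean level was 49.8% in the TGF-beta library and 48.9% in the control, with counting intervals of ± 0.0170 and ± 0.0163 points and SDs over sites of 39.2 and 38.7 points. Clustered sites of the same 100 kb windows, 8195803 in number, averaged 66.4% in the TGF-beta library and 66.1% in the control. All autosomal sites tested averaged 65.9% and 65.6%. The median isolated site was at 50.0% in the TGF-beta library and at 47.7% in the control, whereas the median clustered site was at 86.2% and 84.1%.

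The distribution of isolated sites had a peak at each end rather than a peak near its mean. With 10 calls drawn at random from every site of each library, so that depth is equal, 32.8% of isolated sites were under 20% in the TGF-beta library and 33.1% in the control. Levels of 80% or more were held by 39.2% and 38.1%, and 28.0% and 28.8% lay between. Among clustered sites the share under 20% was 17.9% in the TGF-beta library and 17.5% in the control, and the share at 80% or more was 58.2% and 57.4%. From 10 calls, the low class holds sites with 0 or 1 methylated call and the high class those with 8 to 10. The low class was larger among isolated than among clustered sites, and the high class smaller.

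The 100 kb windows used for matching needed at least 10 isolated and 10 clustered sites, and 19318 of 22054 windows qualified. They held 551580 of the isolated sites, with a median of 28 isolated and 309 clustered sites per window. Over these windows the isolated level averaged 50.7% ± 28.4 in the TGF-beta library and 49.8% ± 28.0 in the control (SD over windows, n = 19318). The clustered level averaged 63.3% ± 15.6 and 63.2% ± 14.999. Isolated sites therefore lay below clustered sites by a mean of -12.6 points (SD 19.7) in the TGF-beta library and -13.4 points (SD 20.0) in the control. They were the lower kind in 14478 windows of the TGF-beta library and 14595 windows of the control. The spread over windows of isolated levels was wider than that of clustered levels.

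The size and the sign of this gap followed the control level of the window. That level was taken from the in-between sites, which belong to neither group compared, in windows with at least 50 of them. In the 7713 windows under 40%, isolated sites averaged 22.5% ± 7.56 in the TGF-beta library and 21.9% ± 6.35 in the control, against 50.2% ± 8.06 and 51.0% ± 7.40 for clustered sites (SD over windows). Isolated sites were lower than clustered sites in 7709 of these windows in the TGF-beta library and in 7710 in the control. The mean gap was -27.7 points (SD 8.61) and -29.0 points (SD 8.36).

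In the 2940 windows of 40% to 60%, isolated sites were at 41.8% in the TGF-beta library and 39.8% in the control, against 63.6% and 62.8% for clustered sites. The gap there was -21.8 and -23.0 points, and isolated sites were lower in 96.5% and 97.2% of windows. In the 3336 windows of 60% to 80% the gap had nearly closed, at -3.67 points (SD 15.3) in the TGF-beta library and -4.01 points (SD 14.97) in the control.

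In the 5324 windows of 80% or more the order was turned. Isolated sites averaged 86.1% ± 6.95 in the TGF-beta library and 85.3% ± 6.401 in the control, against 77.5% ± 13.7 and 76.9% ± 13.9 for clustered sites (SD over windows). They were higher than clustered sites in 3496 windows of the TGF-beta library and 3446 of the control, by a mean of 8.59 and 8.48 points. This order depended on the settings: with clustered sites limited to 4 to 9 others, isolated sites were below them in the control, at -2.16 points. With windows classed by all their sites in place of the in-between ones, the control gap was -1.88 points.

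**Figure D1:**
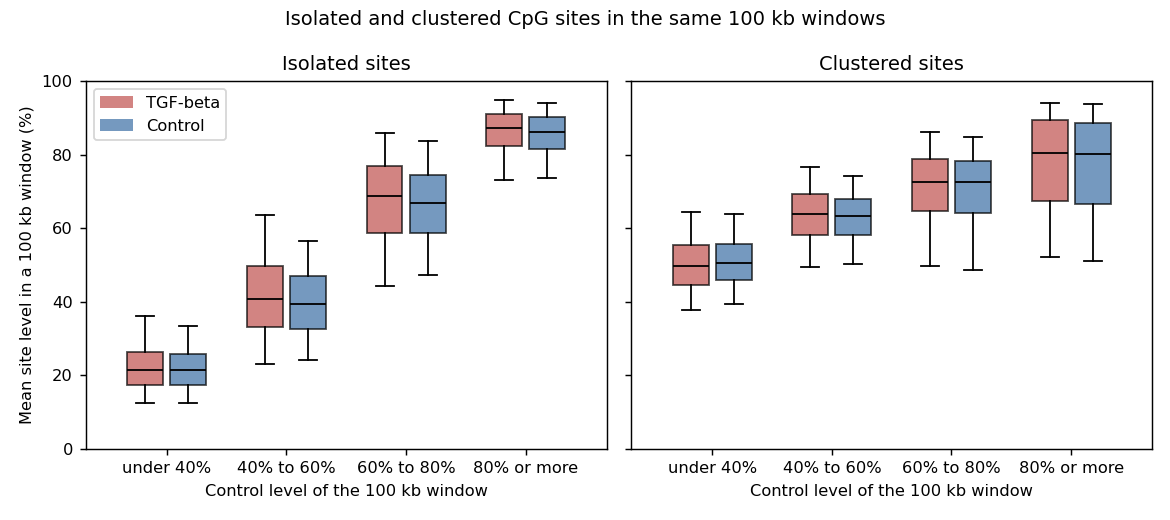
Mean level of isolated sites (left panel) and clustered sites (right panel) in the same 100 kb windows, in percent, by the control level of the window; boxes give the quartiles and median over windows and whiskers the 5th and 95th percentiles, with TGF-beta left of control. Median isolated levels run from 21.4% in each library in windows under 40% to 87.3% (TGF-beta) and 86.2% (control) in windows of 80% or more, while clustered medians stay between 49.7% and 80.5%.

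Levels differed step by step with the number of neighbours, not only between the isolated and the clustered class. In windows under 40%, sites with 0, 1, 2 and 3 others within 200 bp were at 22.5%, 26.5%, 30.5% and 34.6% in the TGF-beta library, and at 21.9%, 26.2%, 30.5% and 34.9% in the control. Sites with 4 to 7, 8 to 15 and 16 or more others were at 43.3%, 57.2% and 71.9% in the TGF-beta library, and at 43.9%, 58.0% and 71.7% in the control. Each step towards more neighbours was a step towards a higher level in these low windows.

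In windows of 80% or more the same steps were nearly flat up to 15 others. Sites with 0 to 3 others were between 86.2% and 87.6% in the TGF-beta library and between 85.5% and 87.1% in the control. Sites with 8 to 15 others were at 85.8% and 85.2%, and sites with 16 or more at 44.2% and 43.1%. With 10 calls drawn, 49.1% of those densest sites were under 20% in the TGF-beta library and 50.2% in the control, against 3.43% and 3.44% of isolated sites.

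**Figure D2:**
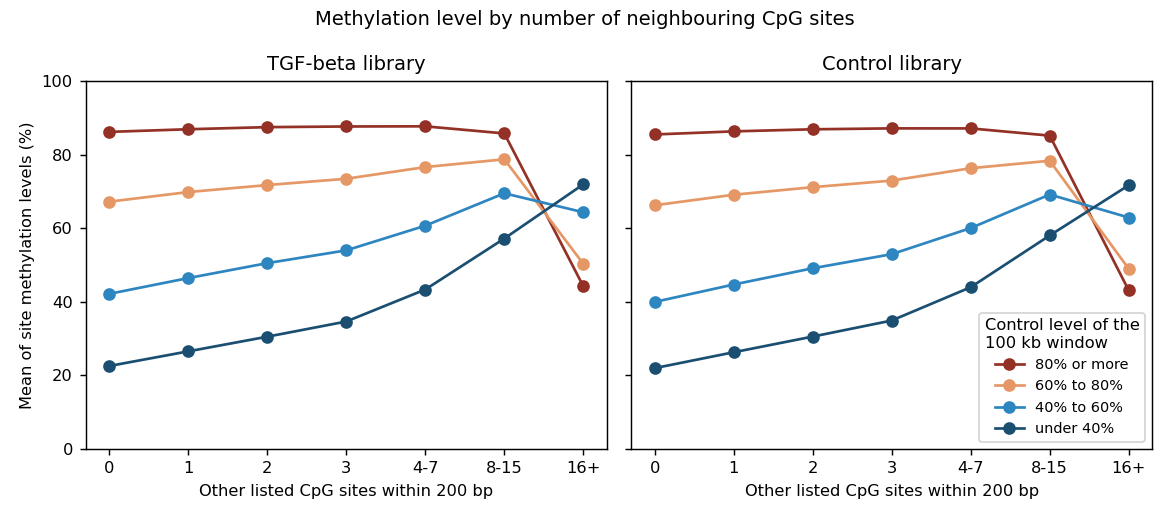
Mean of site levels (percent) by the number of other listed CpG sites within 200 bp, in the TGF-beta library (left panel) and the control (right panel), with 1 line per class of 100 kb window. The lowest line climbs from 22.5% at isolated sites to 71.9% at 16 or more neighbours in the TGF-beta library, and from 21.9% to 71.7% in the control, whereas the highest line stays at 85.2% or more up to 15 neighbours and is at 44.2% and 43.1% beyond.

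At equal depth the shape of the distributions differed as well. In windows under 40%, 58.4% of isolated sites were under 20% in the TGF-beta library and 59.3% in the control, and 9.09% and 8.77% were at 80% or more. Clustered sites of those windows had 23.6% and 21.9% under 20% and 35.1% and 34.9% at 80% or more. In windows of 80% or more, 83.7% of isolated sites were at 80% or more in the TGF-beta library and 82.9% in the control, against 74.2% and 73.6% of clustered sites.

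**Figure D3:**
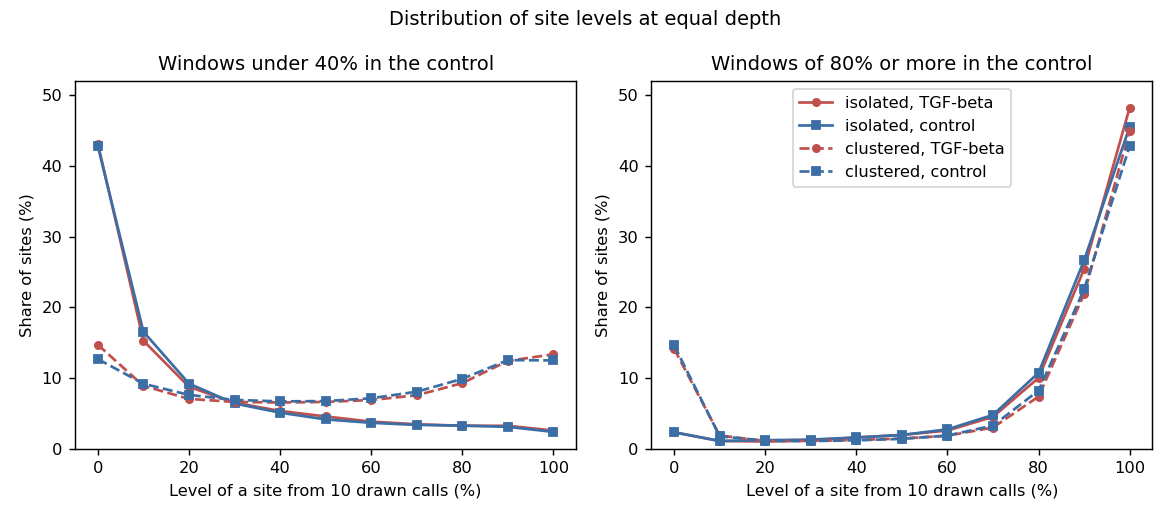
Share of sites (percent) at each level when 10 calls are drawn from every site, in windows under 40% (left panel) and of 80% or more (right panel); solid lines are isolated and broken lines clustered sites. In the low windows 43.1% (TGF-beta) and 42.8% (control) of isolated sites had no methylated call, against 14.7% and 12.7% of clustered sites, whose levels spread over the whole range.

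The level of isolated sites was more closely related to that of the in-between sites of their window than the level of clustered sites was. Across 19313 windows the isolated level correlated with the level of in-between sites at r = 0.972 in the TGF-beta library and 0.972 in the control, and the clustered level at r = 0.769 and 0.747. These are descriptions over windows of the same libraries, which are not independent replicates. In-between sites are the kind nearest to isolated sites in number of neighbours. A correlation with the level of all sites of a window is not given here. Windows under 40% made up 39.9% of the windows and held 42.0% of the isolated sites but 25.8% of the clustered ones. The isolated level was under 20% in 3163 of them in the TGF-beta library and in 3172 in the control, and the clustered level in 0.

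Isolated sites farther from any other site were less methylated over the genome. The differences between the 201 to 300 bp and 601 to 1000 bp groups were smaller within windows of 1 class. Over all isolated sites, those whose nearest site was 201 to 300 bp away were at 50.9% in the TGF-beta library and 50.0% in the control. Those at 601 to 1000 bp were at 41.8% and 40.7%, and the 1262 sites beyond 1000 bp at 37.99% and 36.4%. Within windows under 40%, the 201 to 300 bp and 601 to 1000 bp groups were at 22.6% and 20.5% in the TGF-beta library and at 22.0% and 19.9% in the control. Within windows of 80% or more they were at 86.0% and 86.0% in the TGF-beta library and at 85.3% and 85.4% in the control. In windows of 60% to 80% they were at 67.1% and 65.3% in the TGF-beta library and at 66.2% and 63.7% in the control. The 131 sites there beyond 1000 bp were at 56.7% and 57.6%. Sites beyond 1000 bp were at 23.1% and 21.4% in windows under 40% (762 sites). They were at 43.8% and 40.9% in windows of 40% to 60% (188 sites), and at 85.4% and 84.6% at 80% or more (164 sites). In each class and library, the group next in distance after 201 to 300 bp was higher than that group. Levels thus did not fall steadily with distance within classes. At the limit of the definition, 53494 sites with their nearest neighbour at 201 to 210 bp were at 53.1% and 52.3%, and 60544 sites with it at 191 to 200 bp, just outside the definition, were at 54.1% and 53.6%. At the limit of depth, isolated sites whose smaller count was 10 or 11 calls were at 47.9% and 47.2%, and those at 8 or 9 calls, which were left out, at 47.7% and 46.8%.

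Within windows of 1 class, isolated sites were higher where the nearest site, though more than 200 bp away, was highly methylated. In windows under 40%, isolated sites were at 20.8% in the TGF-beta library and 20.5% in the control where the nearest site, within 600 bp, was under 20%. They were at 27.3% and 24.9% where it was at 80% or more. In windows of 80% or more the same groups were at 59.5% and 55.7%, and at 88.2% and 87.7%. Isolated and nearest sites at 201 to 300 bp were on opposite sides, under 20% and at 80% or more, in 8.49% of 247005 pairs in the TGF-beta library and 8.26% in the control.

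Isolated sites varied more between chromosomes than clustered ones. Their mean ranged over the 38 autosomes from 36.5% on chromosome 31 to 66.6% on chromosome 9 in the TGF-beta library, and from 35.5% to 65.2% on the same chromosomes in the control. Clustered sites ranged from 62.7% to 70.1% and from 62.5% to 69.4%. Matched by window, isolated sites were below clustered sites on all 38 autosomes in both libraries, by -21.5 points on chromosome 31 in the TGF-beta library and -22.6 in the control, and by -0.592 and -1.22 points on chromosome 9. The share of isolated sites among the sites tested also differed, between 1.60% on chromosome 26 and 7.13% on chromosome 32.

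**Figure D4:**
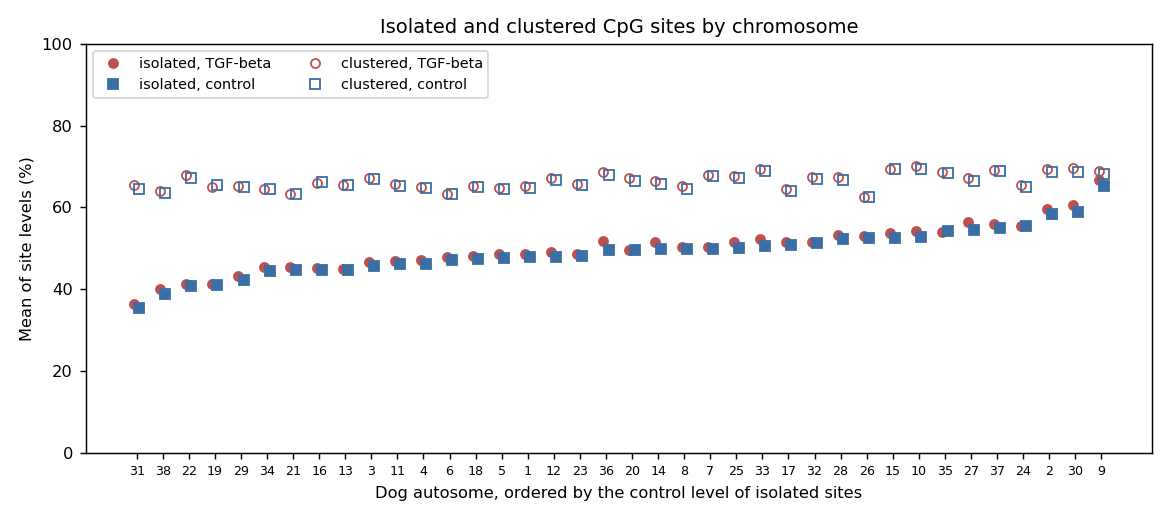
Mean of site levels (percent) on each dog autosome, ordered by the control level of isolated sites; filled symbols are isolated and open symbols clustered sites, with TGF-beta (circles) left of control (squares). Isolated levels climb from 36.5% (TGF-beta) and 35.5% (control) on chromosome 31 to 66.6% and 65.2% on chromosome 9, while clustered levels stay between 62.5% and 70.1%.

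The windows with the widest gaps show both orders. Among 393 windows with at least 50 isolated and 50 clustered sites, isolated sites were lowest relative to clustered ones in the control on chromosome 31 from 5500001 to 5600000. There, 51 isolated sites averaged 30.0% in the TGF-beta library and 27.5% in the control, and 260 clustered sites 76.3% and 77.8%. Chromosome 2 from 8100001 to 8200000 followed, with isolated sites at 25.5% and 26.9% and clustered sites at 73.0% and 74.2%. The third, chromosome 11 from 28100001 to 28200000, had 20.2% and 20.7% against 62.0% and 63.9%.

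At the other end, on chromosome 4 from 62400001 to 62500000, 50 isolated sites averaged 86.2% in the TGF-beta library and 86.2% in the control, and 229 clustered sites 33.0% and 32.9%. Chromosome 30 from 9200001 to 9300000 had isolated sites at 91.3% and 90.2% and clustered sites at 44.7% and 45.0%. Chromosome 11 from 12000001 to 12100000 had 85.9% and 80.7% against 40.2% and 38.1%. These 6 windows were picked by their control values, and the TGF-beta library had the same order in each. That is no separate support, because window levels of the libraries correlated at r = 0.982 for isolated and 0.982 for clustered sites.

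The comparison of the libraries asks whether isolated sites differed after 30 days of TGF-beta. On average they were slightly higher, by 0.908 points (counting interval ± 0.0235, SD over sites 14.97), and clustered sites of the matched windows by 0.364 points (± 0.00589). Sites with 1 other site within 200 bp were higher by 0.631 points and in-between sites by 0.449 points. By chromosome, isolated sites were higher in the TGF-beta library in 35 of 38 cases, between -0.218 points on chromosome 35 and 2.17 points on chromosome 36. Clustered sites were higher in 34 of 38 cases, between -0.568 points on chromosome 19 and 0.989 points on chromosome 30. The sign of the mean difference at isolated and at clustered sites depended on the weight given to deeply covered sites. Summed calls at isolated sites gave 50.2% in the TGF-beta library and 50.4% in the control, a difference of -0.186 points. At clustered sites the difference was -0.152 points. The libraries also covered the site classes unequally. Isolated sites had a median of 28 calls in the TGF-beta library and 31 in the control, clustered ones 44 and 24, and the part of this in the small mean differences was not tested. At sites with 30 to 39 calls in the TGF-beta library and 20 to 29 in the control, the levels were 47.7% and 46.8% for isolated sites and 66.4% and 66.1% for clustered ones.

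The mean difference varied with the level of the window. In windows under 40%, isolated sites were higher in the TGF-beta library by 0.567 points (SD over windows 4.41) and clustered sites lower, at -0.775 points (SD 2.98). The median over these windows was 0.112 points for isolated sites, which were higher in 51.5% of windows. For clustered sites it was -1.05 points, and they were higher in 31.7% of windows. In-between sites were at -0.111 points there, with a median of -0.621. In windows of 40% to 60% isolated sites were higher by 2.00 points (SD 7.76) and clustered sites by 0.779 (SD 4.12). From 60% to 80% the differences were 0.884 and 0.539 points, and at 80% or more 0.716 and 0.605 points. In-between sites were higher by 1.32 points from 40% to 60%, 0.608 points from 60% to 80% and 0.569 points at 80% or more. Each of these means was smaller than the spread between windows.

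Single isolated sites were compared with Fisher's exact test on their calls, with Benjamini-Hochberg adjustment over the 18169274 sites tested, and called at an adjusted p under 0.05 and a difference of at least 20 points. Of the isolated sites, 9838 (1.74%) were called higher in the TGF-beta library, against 1.28% of all sites tested and 1.21% of clustered sites. In the other direction 6430 (1.14%) were called lower, against 1.09% of all sites and 1.04% of clustered sites. Sites with 1 other site within 200 bp had similar shares, 1.69% called higher and 1.25% lower, and in-between sites had 1.63% and 1.30%. Calls depend on depth, so they were also read in 3 classes of matched depth. At 30 to 39 calls in the TGF-beta library and 20 to 29 in the control, 1.55% of isolated, 0.954% of clustered and 1.03% of all sites were called higher, and 1.12%, 0.843% and 0.936% lower. At 40 to 49 and 30 to 39 calls these shares were 2.43%, 1.54% and 1.65% higher, and 1.71%, 1.42% and 1.52% lower. At 40 to 59 calls in each library they were 3.16%, 1.95% and 2.15% higher, and 2.02%, 1.98% and 2.09% lower.

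The isolated sites called higher had a median of 74.0% in the TGF-beta library and 20.6% in the control, and those called lower a median of 18.8% and 69.0%. The same calls chose these sites, so the medians only describe them. Among them 480 were at 80% or more in the TGF-beta library and under 20% in the control, and 188 were under 20% in the TGF-beta library and at 80% or more in the control. Among the 4 window classes, the share of isolated sites called higher was largest in windows of 40% to 60%, at 3.50% against 1.89% of clustered sites. The share called lower was largest in windows of 60% to 80%, at 1.81% against 1.004% of clustered sites. In windows of 80% or more 0.997% of isolated sites were called higher and 0.862% lower, against 0.796% and 0.457% of clustered sites. In windows under 40% isolated sites had 1.41% called higher and 0.916% lower, against 1.36% and 1.61% of clustered sites. Shares of in-between sites and of all sites called in each window class are not given here.

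Reads from the opposite strands of a CpG were compared to describe the spread within a library. That is not a measure of the spread between libraries of the same group, since each group has 1. At least 10 calls on each strand in each library were present at 42891 isolated sites. With 10 calls drawn from each strand, a gap of 50 points or more between strands was found at 1.46% of these sites in the TGF-beta library and at 1.28% in the control. The libraries differed by as much at 3.81% of sites on the first strand and at 3.80% on the second. At clustered sites the strands differed so at 1.13% and 1.21%, and the libraries at 2.73% on each strand.

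Isolated and clustered sites were also compared in windows in which the libraries differed. In-between sites again set the groups, so that the sites compared did not choose their own windows. They were higher by at least 10 points in the TGF-beta library in 455 windows, with a mean difference of 15.3 points (SD 5.22). Isolated sites of those windows averaged 57.4% in the TGF-beta library and 39.3% in the control, a difference of 18.1 points (SD over windows 7.57), and were higher in all 455. Clustered sites averaged 71.2% and 62.0%, a difference of 9.12 points (SD 4.37). The difference at isolated sites exceeded that at clustered sites in 433 of the 455 windows, by a mean of 8.94 points (SD 5.90). The mean difference of in-between sites was nearer to that of isolated than to that of clustered sites.

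In-between sites were lower by at least 10 points in 225 windows, with a mean difference of -14.0 points (SD 3.85). Isolated sites averaged 44.9% in the TGF-beta library and 60.6% in the control there, a difference of -15.7 points (SD 6.67), and clustered sites 65.5% and 73.7%, a difference of -8.23 points (SD 3.67). The difference was larger in size at isolated than at clustered sites in 205 of the 225 windows. Limiting clustered sites to 4 to 9 others left this order, with differences of 10.2 and -9.70 points for them and with 424 and 199 windows in which isolated sites differed more. In the 11870 windows where in-between sites were within 2 points, isolated and clustered sites differed by 0.405 (SD 2.94) and -0.153 points (SD 1.81).

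**Figure D5:**
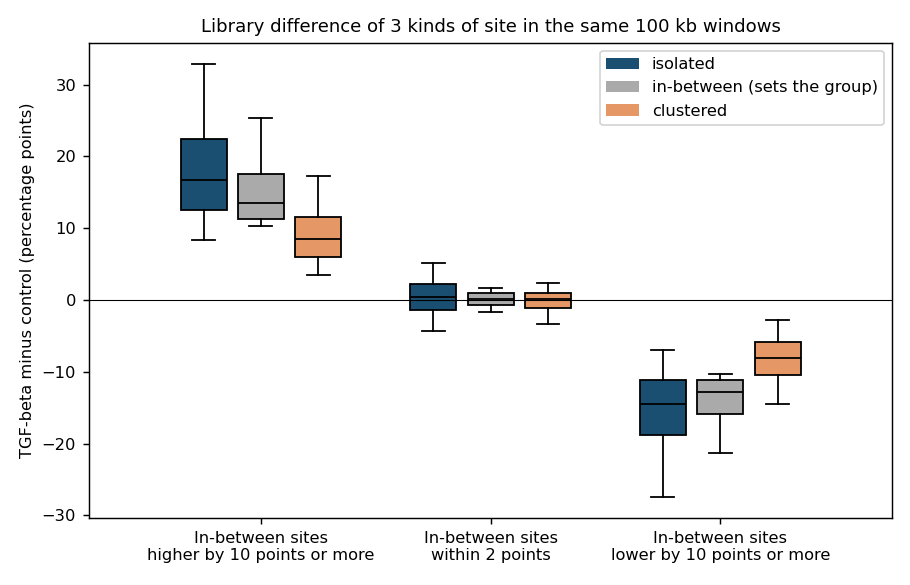
Difference between the TGF-beta library and the control, in percentage points, of isolated, in-between and clustered sites in 100 kb windows grouped by the difference of their in-between sites; boxes give the quartiles and median over windows and whiskers the 5th and 95th percentiles. Isolated medians are 16.7 points in the 455 higher and -14.4 points in the 225 lower windows, against 8.52 and -8.15 points for clustered sites. In-between medians are 13.5 and -12.8 points.

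Adjacent windows of this kind formed 45 runs of 3 or more that were higher and 24 that were lower. In every one of these 69 runs the mean difference was larger in size at isolated than at clustered sites. In some of the runs it was larger in size at in-between than at isolated sites. The longest run, on chromosome 27 from 22700001 to 24100000, held 496 isolated sites at 67.0% in the TGF-beta library and 39.2% in the control, of which 159 (32.1%) were called higher and 0 lower. Its 2636 in-between sites were at 69.5% and 46.7%, with 26.3% called higher. Its 1607 clustered sites were at 75.5% and 61.4%, with 15.6% called higher. On chromosome 15 from 53700001 to 54600000, 192 isolated sites were at 58.6% and 32.2% and 2029 clustered sites at 72.5% and 56.4%. On chromosome 19 from 46600001 to 47500000, 199 isolated sites were at 51.3% and 34.1%, and 2614 clustered sites at 66.6% and 56.8%.

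The longest run in the other direction lay on chromosome 20 from 10200001 to 11000000. Its 395 isolated sites were at 41.4% in the TGF-beta library and 65.7% in the control, with 97 (24.6%) called lower and 1 higher. The 1505 in-between sites there were at 51.2% and 72.5%, with 22.9% called lower. The 815 clustered sites were at 68.1% and 81.1%, with 10.9% called lower. On chromosome 19 from 35400001 to 36000000, 187 isolated sites were at 53.3% and 75.6%, and 1945 clustered sites at 73.8% and 85.0%.

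Single isolated sites with large differences are named by their size among called sites with 40 to 200 calls in each library, at least 10 calls on each strand and a difference of 10 points or more, of the same sign, on both strands. There were 585 such sites with a gain and 399 with a loss, and Fisher's exact test gave adjusted p-values between 1.29e-24 and 5.31e-09 for the 10 named. The largest gain was at 9294438 to 9294439 on chromosome 5, at 93.0% in the TGF-beta library (exact 95% interval 80.9 to 98.5, 43 calls) and 2.27% in the control (0.0575 to 12.02, 44 calls). Its nearest site, 335 bp away, was at 85.7% and 8.00%, and the in-between sites of its window at 64.8% and 39.7%. The second gain, at 22987431 to 22987432 on chromosome 24, was at 89.7% (78.8 to 96.1, 58 calls) and 4.00% (0.488 to 13.7, 50 calls). Here the nearest site, 210 bp away, was at 55.8% and 0%, while the in-between sites of the window were at 89.0% and 87.1%.

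The remaining gains were at 7885983 on chromosome 9 with 95.3% in the TGF-beta library and 22.0% in the control, at 17012348 on chromosome 33 with 89.1% and 19.0%, and at 53118673 on chromosome 14 with 81.8% and 11.9%. The nearest site to that on chromosome 9, 565 bp away, was at 33.3% and 25%, from 3 and 4 calls. The site on chromosome 33 had its nearest site, 321 bp away, at 7.14% (14 calls) and 30.0% (10 calls), a difference that was not tested. That on chromosome 14 had its nearest site, 230 bp away, at 81.3% and 18.2%.

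The largest loss was at 17413779 to 17413780 on chromosome 18, at 6.60% in the TGF-beta library (2.70 to 13.1, 106 calls) and 89.4% in the control (79.4 to 95.6, 66 calls). It stood alone, with its nearest site, 216 bp away, at 96.9% and 90.3%. The second loss, at 390646 to 390647 on chromosome 13, was at 8.00% (2.22 to 19.2, 50 calls) and 90.2% (78.6 to 96.7, 51 calls), and its nearest site, 219 bp away, was at 100.0% and 96.8%. The others were at 20800786 on chromosome 13 with 14.9% and 96.7%, at 5984955 on chromosome 32 with 6.33% and 81.4%, and at 10705421 on chromosome 20 with 23.3% and 92.6%. Of these, the site on chromosome 32 had its nearest site, 248 bp away, at 42.9% and 84.0%, and that on chromosome 20 had it 206 bp away at 80.0% and 100.0%, from 5 and 9 calls. The site at 20800786 on chromosome 13 had its nearest site, 333 bp away, at 0% and 25%, and lies in a window whose in-between sites were higher in the TGF-beta library, at 68.5% against 49.2% in the control. The site on chromosome 20 lies inside the run of lower windows described above, whose isolated sites were lower as a group. Whether a base difference between the cultures underlies any single site was not tested.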

How the data were processed

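Genomic DNA of 2 MDCK cultures was sequenced after bisulfite conversion, with methylated adapters and gel-selected inserts, per the labels' protocols. The deposited values are counts: the authors' files give, for each CpG cytosine, a count of methylated and a count of unmethylated calls. Bismark, Bowtie 0.12.8 and canFam3 are named in the submitters' processing notes, but the labels' protocol names another aligner. Removal of duplicates and of overlapping mates is not given in the sources used here. Either, if kept, would make counting intervals too narrow. The column of methylated calls was identified by mitochondrial DNA, which is nearly free of them. A last line that names no chromosome (6 calls in the TGF-beta library, 12 in the control) was left out.

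Adjacent cytosines were joined into sites, and both strands were listed for 90.6% of them; cytosines in unpaired runs, with 0.00656% of calls, counted as neighbours only. A CpG that no read covered is not listed, so a site beside uncovered sequence may be taken as isolated. Groups came from the labelled agent. Sites needed 10 calls in both libraries. Intervals are 95% and cover counting error only; those of named sites are exact (Clopper-Pearson). No test across replicates exists, and Fisher's exact test compares 2 libraries. The alternatives were call minimums of 5 and 20, radii of 100 and 500 bp, summed calls, strand minimums, a depth limit, another clustered class, other window classes, equal calls per site, calls of 30 points and leaving out chromosomes 3, 6, 7 and 25. Named sites are the 5 largest gains and 5 largest losses under the limits given in the text, and named windows the 3 lowest and 3 highest gaps. Named runs are the 3 longest higher and 2 longest lower and were picked after their values were seen. The members, rules and lists were chosen with earlier results of these data known. Tables were read with pyarrow 21.0.0 and pandas 2.3.3, the exact test was computed with numba 0.67.0 and numpy 2.4.6, intervals came from scipy 1.17.1 and figures from matplotlib 3.10.9, under Python 3.11.15.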

Additional observations from a re-analysis of the deposited data

How the results depend on the processing

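Values below are, in order and in points, the gap between isolated and clustered sites in the TGF-beta library and in the control, the control gap in windows under 40% and of 80% or more, and the library difference at isolated and at clustered sites. A minimum of 5 calls gave -12.2, -13.0, -29.4, 9.85, 0.909 and 0.341, and of 20 calls -13.2, -14.0, -27.3, 5.35, 0.910 and 0.414. A radius of 100 bp gave -13.9, -14.5, -34.8, 9.98, 0.724 and 0.351, and of 500 bp, with 132 windows, -16.9, -17.8, -21.8, 5.63, 1.10 and -0.257. Summed calls gave -13.6, -13.7, -27.5, 6.004, -0.186 and -0.152. Sites with 5 calls on each strand gave -12.6, -13.4, -29.4, 8.48, 1.12 and 0.611. Without sites above 3 times the median depth the values were -12.6, -13.4, -29.1, 8.69, 0.894 and 0.368. Without chromosomes 3, 6, 7 and 25 they were -12.6, -13.4, -29.1, 8.57, 0.914 and 0.383. Clustered sites of 4 to 9 others gave gaps of -14.9, -15.9, -25.1 and -2.16 and a clustered difference of 0.140. With equal numbers of calls drawn from a site in both libraries the library differences were 0.910 and 0.367. Window classes from all sites gave control gaps of -26.7 and -1.88 points, and from the TGF-beta library -29.0 and 8.13. Summed calls without very deep sites, tried after seeing the data, gave library differences of -0.0194 and 0.00174.

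The gap over all windows and in windows under 40% kept its sign under each alternative run. The gap in windows of 80% or more and the library differences did not, and for these the cause was not tested. The library difference changed sign with weighting by depth. Isolated sites called higher and lower numbered 30457 and 21592 at 100 bp and 742 and 449 at 500 bp, out of 1757224 and 42941 isolated sites. They numbered 2978 and 1931 of the 141273 sites with 5 calls on each strand, and 4726 and 2790 at equal calls per site, where fewer calls enter the test. The other settings gave 8455 to 8812 higher and 5330 to 6038 lower, out of different numbers of isolated sites. With 20 calls in both libraries, 2.74% of 322069 sites were called higher and 1.87% lower. With calls of 30 points, 1.497% of 564733 sites were called higher and 0.944% lower. Shares of all sites and of clustered sites called under these alternatives are not given here. Depth limits single-site calls: of all sites, 1.03% were called higher at 30 to 39 TGF-beta and 20 to 29 control calls, against 2.15% at 40 to 59 calls in each library. No paired analysis was possible because each group has 1 library.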

Other observations

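Sites kept their state between the libraries to different degrees. With 10 calls drawn per site and library, in windows whose control level was under 40%, 63.8% of the 20328 isolated sites at 80% or more in the control were so in the TGF-beta library as well, against 76.6% of such clustered sites. Of the 137495 isolated sites under 20% in the control there, 83.3% were under 20% in the TGF-beta library, against 72.7% of such clustered sites. In windows of 80% or more, the highly methylated state was kept by 93.5% of isolated and 95.3% of clustered sites. The state under 20% was kept by 68.7% of isolated and 91.6% of clustered sites of those windows. Because 10 calls place a site only roughly, part of each change of state is sampling. That part can differ with how common a state is. In windows under 40%, 8.77% of isolated and 34.9% of clustered sites were at 80% or more in the control, and 59.3% and 21.9% under 20%. In windows of 80% or more these shares were 82.9% and 73.6%, and 3.44% and 16.4%. How much of the difference between kinds is sampling was not tested. The kinds also differed in where sites lay within a class. In windows of 80% or more, 14.6% of clustered sites had 0 methylated calls in the control and 1.77% had 1, against 2.33% and 1.11% of isolated sites. The part of this in the contrast between isolated and clustered sites was not tested.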
